A study of Mus musculus with 6 samples.

Results

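Superoxide dismutases, catalase and peroxiredoxins are the enzymes that remove superoxide and hydrogen peroxide from the cell. They were examined in whole mouse embryos exposed to maternal diabetes. The members were Sod1, Sod2, Sod3, Cat and Prdx1 to Prdx6, 10 genes in all, and every probe set that the array's annotation pairs with exactly 1 symbol, that symbol being a member, was taken. This gave 20 probe sets of 7 genes, out of 45037 probe sets and 18194 genes on the array. Of the 20 probe sets, 18 were bright enough to be tested. Prdx1 shares each of its 5 probe sets with a second symbol, that of a pseudogene, so no value is given for it, and the annotation used here pairs no probe set with Prdx5 or Prdx6, which were not analysed here.

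All embryos were of the inbred strain FVB and were taken at embryonic day 10.5. Dams of the diabetic group had received 2 injections of streptozotocin, a drug that kills the insulin-producing cells of the pancreas, at 100 mg per kg body weight each, within 1 week and at an age of 7 to 9 weeks. Their blood glucose exceeded 250 mg per dl before they were mated, and dams of the control group were not diabetic. Equal amounts of RNA from 3 morphologically normal embryos, each from a different pregnancy, made 1 pool, and each group had 3 pools on 1 Affymetrix mouse genome array each. Pools of embryos average over tissues and individuals. Fewer cells of a type and less RNA per cell cannot be told apart in them.

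Superoxide is formed mainly as a by-product of mitochondrial respiration and by NADPH oxidases. The dismutases turn it into hydrogen peroxide, SOD1 in the cytosol, SOD2 in the mitochondrial matrix and SOD3 outside the cell. Hydrogen peroxide is then broken down by catalase in peroxisomes and by peroxiredoxins, which are oxidised in doing so. Most peroxiredoxins are restored by thioredoxin. Excess of these oxidants has long been discussed as a cause of malformation in diabetic pregnancy, and the comparison asked whether embryos of diabetic dams carry more or less of the transcripts that remove them.

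Promoters of the members, those with no array value included, were inspected for short motifs of factors that respond to oxidants and low oxygen. RefSeq promoters (GRCm38.p6), from 250 bases before to 50 after the start site, were given for 8 of the 10 members. The stretches of Sod1 and Prdx4 are shown because Sod1 had the largest increase among the dismutases and a Prdx4 probe set the largest among the peroxiredoxins. The stretches are the 250 bases before the start, on the gene's strand, at chr16:90220512-90220761 (plus strand) and chrX:155338461-155338710 (minus strand). Capitals mark the matches described after them.
Sod1: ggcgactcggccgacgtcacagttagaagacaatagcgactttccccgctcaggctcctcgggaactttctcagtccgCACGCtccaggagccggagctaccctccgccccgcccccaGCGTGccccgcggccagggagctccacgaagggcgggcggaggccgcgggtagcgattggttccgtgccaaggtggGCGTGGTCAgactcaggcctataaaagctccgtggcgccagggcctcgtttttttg
Prdx4: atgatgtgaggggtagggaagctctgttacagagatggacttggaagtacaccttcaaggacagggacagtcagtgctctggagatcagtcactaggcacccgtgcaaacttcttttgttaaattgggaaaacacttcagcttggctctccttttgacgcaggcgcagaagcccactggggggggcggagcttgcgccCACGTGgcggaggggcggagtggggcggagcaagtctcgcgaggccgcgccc

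The motifs were TGACNNNGC, the core of the antioxidant response element bound by NRF2, ACGTG and GCGTG, the cores of the hypoxia response element, and GTAAACA, a forkhead site, each on both strands. Counted from the start site, Sod1 held 1 antioxidant core at -56, which shares letters with a GCGTG, and further GCGTG matches at -132 and -172. Prdx4 held ACGTG on both strands in 1 palindrome, counted as 2 overlapping matches. Sod2 and Prdx3 held 2 GCGTG matches each, Prdx2 held 3, and Cat held none of the motifs. The antioxidant core was present in 2 of the 8 promoters, Sod1 and Prdx1, against 12.4% of all 32851 promoters of the same length. Either hypoxia core was present in 6 of the 8, against 43.8%, and the forkhead site in 0, against 3.65%. Among the 5 genes that rose, described further on, these were 1 with the antioxidant core and 4 with a hypoxia core. These promoters are rich in G and C, with 57.0 to 68.7% against a median of 52.7%. A match of letters is no evidence of binding.

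The arrays of the groups differed in ways that bear on every value that follows. The ratio of 3' to middle signal of bacterial poly-A transcripts spiked into the RNA was 2.07 to 2.52 for control pools and 6.56, 3.47 and 7.00 for diabetic pools 1 to 3, so the signal of these transcripts fell off more steeply away from the 3' end in every diabetic pool, and most in pools 1 and 3. Transcripts of the embryos themselves showed a like pattern: the 3' to 5' ratio of beta-actin was 1.71 to 2.19 in control pools and 10.1, 3.09 and 10.3 in diabetic pools, and that of Gapdh was 0.824 to 0.921 and 1.84, 0.972 and 1.72. The median signal was 82.5 to 103.3 on control arrays and 74.1 to 78.9 on diabetic arrays, although the authors had scaled all arrays to 1 mean. All 21 markers of embryonic tissues were bright enough to be tested, of which 6 were higher and 8 lower in diabetic pools, or 7 and 2 after median centring. Over all genes tested, 17.6% were higher and 19.9% lower. Median centring also moved the counts over all probe sets, from 4318 higher and 6550 lower to 7456 and 3917. Prl8a2, a hormone gene of the decidua, had signals of 5699 to 6522 in control pools and 30.7 to 39.3 in diabetic pools, and 7 other placental and decidual genes were under the filter. Of the other tested genes of that list, Hand1 rose by 0.61 (adjusted p = 0.0079) and Psg21 stood at 0.71 with overlapping groups. The part of maternal tissue in the results was not tested.

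Most of the 7 tested members were higher in the diabetic pools. Altogether 5 genes, Sod1, Sod2, Cat, Prdx3 and Prdx4, passed the test at their brightest probe set, all upward, out of 7 genes tested. These shares were 17.6% higher and 19.9% lower over all 13956 genes tested. Among the 18 member probe sets 11 were higher, where 14.4% of all 30025 tested probe sets were, and 0 were lower, where 21.8% were. At an unadjusted p under 0.05 the count of lower member probe sets was also 0. The groups did not overlap for 14 member probe sets, 13 of which were higher in the diabetic pools (21.9% of all probe sets) and 1 lower (28% of all), and 2 rose at least 2-fold (1.24%). The median log2 fold change, diabetic minus control, was 0.67 over the 7 genes and -0.00025 over all genes. These calls are from limma, with p-values adjusted after Benjamini-Hochberg over every probe set tested. None of the 11 remained once the spike ratio entered the model, a fit in which 0.0966% of all probe sets were higher and 1.11% lower. In that fit the 18 member estimates had a median of 0.33, and the median over all genes was 0.029. An unadjusted p under 0.05 was found for 5 of the 18, and for 4470 of all 30025 probe sets. Of the 18 estimates 14 were above 0, a count for which no share over all probe sets was taken. The spike ratio and the group moved largely together, and the part of RNA quality or labelling in the increases was not tested.

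**Figure D1:**
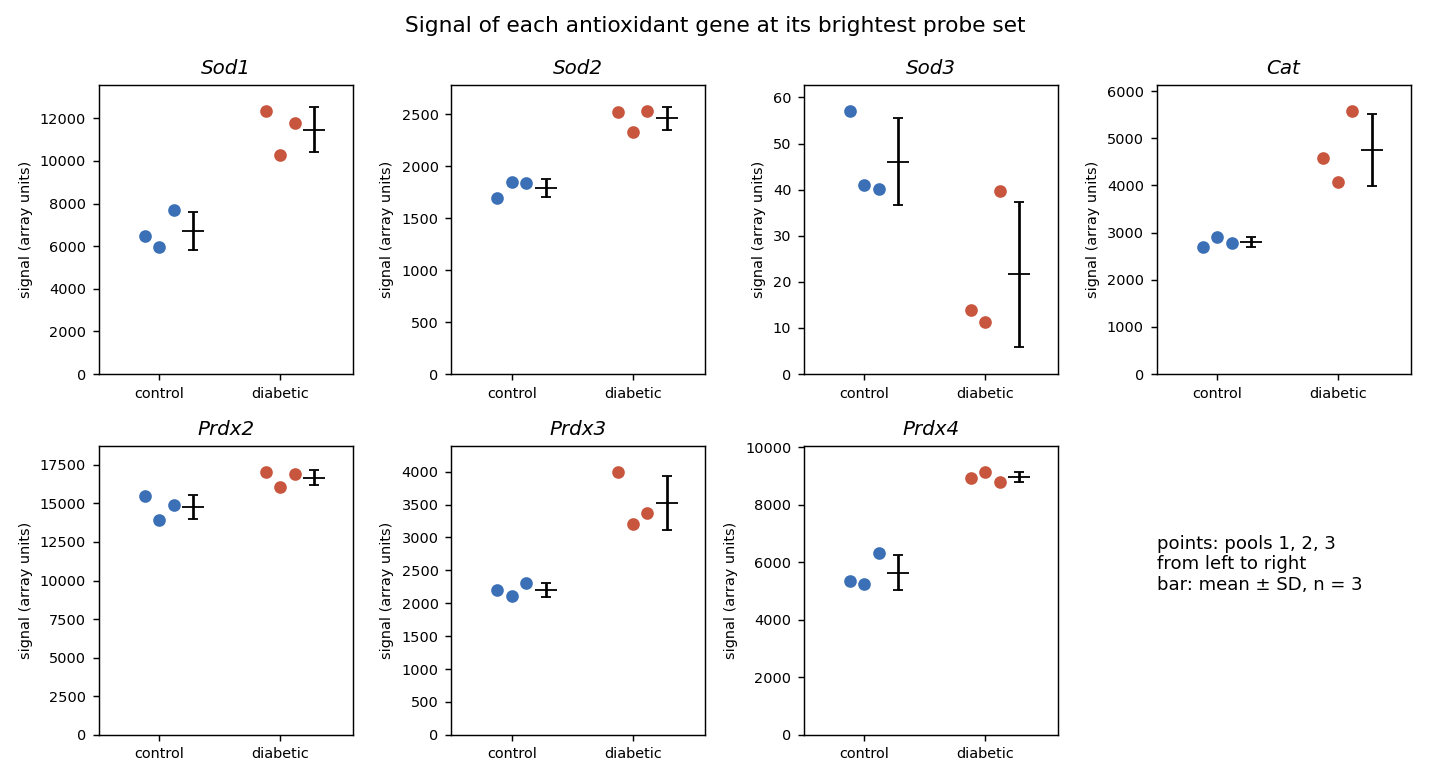
Signal in array units (vertical axes, from 0) of the 7 tested genes at their brightest probe set, with 1 point per pool and the mean ± SD of 3 pools beside each group. Every diabetic pool stands above every control pool for Sod1, Sod2, Cat, Prdx2, Prdx3 and Prdx4, whereas the Sod3 signals are at most 57.0.

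Sod1, the copper and zinc dismutase of the cytosol, rose 1.71-fold. Its brightest probe set gave signals of 6456, 5976 and 7696 in control pools and 12331, 10293 and 11791 in diabetic pools. The lowest diabetic pool thus stood well above the highest control pool, and diabetic pool 2, which has the lowest spike ratio of its group, was the lowest of its group. This was a log2 fold change of 0.78 ± 0.11 (SE, adjusted p = 0.0015, limma), and 0.40 with the spike ratio in the model (adjusted p = 0.30). A second probe set behaved alike, with 5163, 5245 and 6434 against 10847, 8554 and 12682 and a log2 fold change of 0.92 (adjusted p = 0.0023). The suffix of its identifier marks probes that may bind more than 1 transcript.

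The other Sod1 probe sets did not pass. The brighter of these read 555.4, 585.1 and 614.2 in control pools and 939.8, 588.5 and 704.2 in diabetic pools, a log2 fold change of 0.32 (adjusted p = 0.17). Diabetic pool 2 fell inside the control range here, and without it the log2 fold change was 0.48 (adjusted p = 0.024). A dim probe set read 35.5 to 60.2 in control pools and 28.4 to 51.4 in diabetic pools, with overlapping groups (log2 fold change -0.40, adjusted p = 0.50). The remaining probe set was too dim to test, at 4.0 to 13.6 and 10.7 to 25.5. Read as the mean of its 4 tested probe sets, Sod1 had a log2 fold change of 0.40 (adjusted p = 0.038).

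Sod2, the manganese dismutase of the mitochondrial matrix, rose 1.37-fold. The brightest probe set gave 1695, 1846 and 1840 in control pools and 2523, 2329 and 2530 in diabetic pools. The 3 pools of each group lay close together, with SDs of 85.4 and 114.3, and a wide gap separated the groups. On the log2 scale the change was 0.46 ± 0.085 (SE, adjusted p = 0.0041), and 0.29 with the spike ratio in the model (adjusted p = 0.41). With diabetic pools 1 and 3 both left out it was 0.38 (adjusted p = 0.056), a fit in which the single diabetic pool is assumed to vary like the control pools.

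A pair of further Sod2 probe sets also rose. One had 1570, 1550 and 1705 against 2706, 2239 and 2876, a log2 fold change of 0.69 (adjusted p = 0.0022). The other had 561.3, 477.3 and 528.1 against 767.5, 717.6 and 781.5, a log2 fold change of 0.54 (adjusted p = 0.0065). In each of these probe sets diabetic pool 2 was again the lowest diabetic pool, yet above all control pools. The fourth was dim and overlapping, at 36.8 to 63.5 and 37.1 to 48.6 (log2 fold change -0.17, adjusted p = 0.75).

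Sod3, the secreted dismutase, was near the limit of detection in whole embryos. Its tested probe set gave 57.0, 41.1 and 40.1 in control pools and 13.8, 11.2 and 39.8 in diabetic pools, where the filter on dim probe sets lay at 26.7. The highest diabetic pool was just below the lowest control pool, so the groups were barely apart and a single diabetic pool held the range together. The estimate on the log2 scale was -1.31 with a 95% confidence interval of -2.63 to 0.0077 (adjusted p = 0.11), and without diabetic pool 3 it was -1.87 (adjusted p = 0.035). The other Sod3 probe set was under the filter, with 7.5 to 11.3 in control pools and 6.7 to 31.5 in diabetic pools. No direction can be given for this gene.

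Cat encodes catalase, the peroxisomal enzyme that splits hydrogen peroxide into water and oxygen, and it rose 1.69-fold. The brightest probe set gave 2696, 2906 and 2771 in control pools and 4581, 4070 and 5573 in diabetic pools. The control pools were tightly grouped (SD 106.2) and the diabetic pools were not (SD 763.8), with diabetic pool 3 the highest. On the log2 scale this was 0.75 ± 0.12 (SE, adjusted p = 0.0020), and 0.35 with the spike ratio in the model (adjusted p = 0.39). The second probe set gave 2781, 2674 and 3133 against 3409, 3745 and 3511, a log2 fold change of 0.31 (adjusted p = 0.025). Here diabetic pool 2 was the highest, and the estimate with the spike ratio in the model was 0.38 (adjusted p = 0.34). This smaller change lost its call without control pool 1 (adjusted p = 0.096), control pool 2 (0.11), diabetic pool 1 (0.052) or diabetic pool 3 (0.060), and under quantile (0.084) and loess normalization (0.064). The difference in change between both Cat probe sets was 0.44, with a 95% confidence interval of -0.054 to 0.93 (adjusted p = 0.16).

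**Figure D2:**
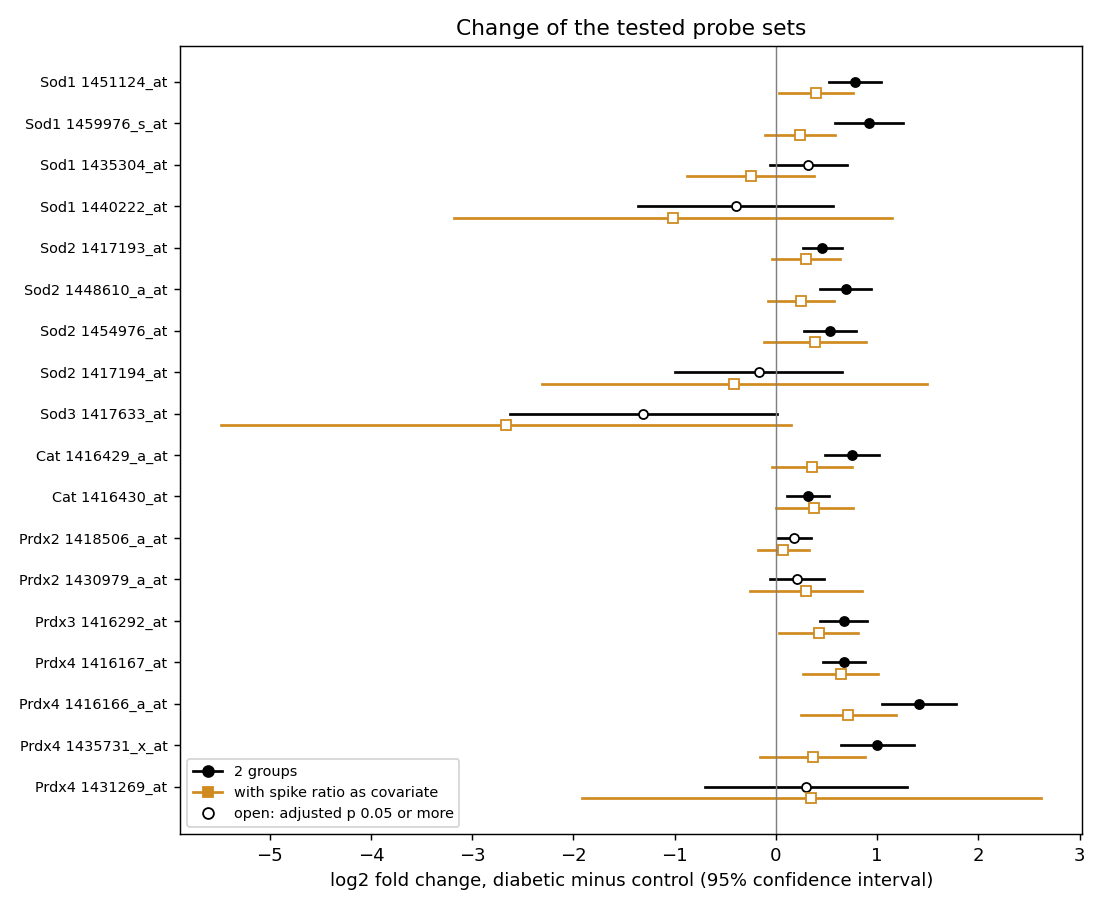
Log2 fold change, diabetic minus control (horizontal axis), of the 18 tested probe sets with 95% confidence intervals, from the comparison of both groups (black) and with the spike ratio in the model (orange), filled where the adjusted p was under 0.05. The 11 filled black points all lie right of 0, no orange point is filled, and the widest intervals belong to dim probe sets.

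Among the peroxiredoxins, Prdx4 rose at 3 of its 4 tested probe sets. At the brightest probe set its change was close to that of Prdx3, which was larger under quantile and loess normalization. PRDX4 is the member of the family that works in the endoplasmic reticulum, where oxidative protein folding makes hydrogen peroxide. Its brightest probe set gave 5352, 5234 and 6329 in control pools and 8942, 9134 and 8775 in diabetic pools. The diabetic pools differed little from each other (SD 179.5), and diabetic pool 2 was the highest. Spike ratios of diabetic pools 1 to 3 were 6.56, 3.47 and 7.00, against 2.07 to 2.52 in control pools. The log2 fold change was 0.67 ± 0.091 (SE, 1.59-fold, adjusted p = 0.0012), and 0.64 with the spike ratio in the model, where the adjusted p was 0.12 and the unadjusted p 0.0038.

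A second Prdx4 probe set gave the largest increase of any member, 2.66-fold. Its signals were 1579, 1342 and 1368 in control pools and 4408, 2884 and 4296 in diabetic pools (log2 fold change 1.41, adjusted p = 0.00072). Diabetic pool 2 was far below the other diabetic pools here but well above every control pool. With the spike ratio in the model the estimate was 0.72 (adjusted p = 0.15). A further Prdx4 probe set had 449.7, 381.6 and 464.5 against 903.6, 696.2 and 1015, an increase of at least 2-fold with a 95% confidence interval of 0.64 to 1.36 on the log2 scale (adjusted p = 0.0022), and the suffix of its identifier marks probes that may cross-hybridise. The last Prdx4 probe set was dim and overlapping, at 25.7 to 53.8 and 33.0 to 64.1 (log2 fold change 0.29, adjusted p = 0.64).

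The log2 fold change of the brightest Prdx4 probe set differed from that of the second one by -0.74, with a 95% confidence interval of -1.34 to -0.14, but this did not pass over all 11266 pairs of probe sets of 1 gene (adjusted p = 0.077). It passed without diabetic pool 2 (difference -0.95, adjusted p = 0.020) and under quantile normalization (-0.97, 0.045), and with the spike ratio in the model it was -0.078 (0.99). Of the 11 such pairs among the members 1 differed in change, the brightest Sod1 probe set and the tested dim one (difference 1.18, adjusted p = 0.049), where 19.4% of all pairs did. Leaving out any 1 pool brought the adjusted p of this pair to between 0.071 and 0.15, and quantile and loess normalization to 0.17 and 0.12. With the spike ratio in the model its difference was 1.41 (adjusted p = 0.78). Pairs were fitted without the variance trend. The SE of this difference, 0.31, was below the SE of 0.42 for the change of the dim probe set alone.

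Prdx3, the peroxiredoxin of the mitochondrial matrix, rose 1.59-fold. Its only probe set gave 2199, 2107 and 2315 in control pools and 3996, 3212 and 3365 in diabetic pools. Diabetic pool 1 was the highest, and the groups were far apart. On the log2 scale the increase was 0.67 ± 0.10 (SE, adjusted p = 0.0018), and 0.42 with the spike ratio in the model (adjusted p = 0.30).

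Prdx2, a cytosolic peroxiredoxin known for its abundance in red blood cells, moved least of the expressed members. The brightest probe set gave 15465, 13938 and 14879 in control pools and 17031, 16084 and 16904 in diabetic pools. The groups did not overlap, yet the gap was small against the level. The log2 fold change was 0.18 with a 95% confidence interval of 0.0064 to 0.35 (adjusted p = 0.099), and its sign depended on the scaling: it was 0.47 after median centring (adjusted p = 0.038), -0.11 after quantile (0.16) and -0.21 after loess normalization (0.028). Without diabetic pool 2 it was 0.20 (adjusted p = 0.029). The dimmer probe set gave 356.7, 362.5 and 348.3 against 408.4, 422.3 and 401.5, also without overlap (log2 fold change 0.21, adjusted p = 0.20). After median centring, quantile and loess normalization it was higher, at 0.51, 0.49 and 0.42 (adjusted p = 0.034, 0.013 and 0.022). The difference in change between both Prdx2 probe sets was -0.03 (adjusted p = 0.89), but -0.60 under quantile (0.042) and -0.63 under loess normalization (0.040). Of 9 tested erythroid markers 0 were higher and 2 lower, and without diabetic pool 2, where Prdx2 passed, 3 were higher and 1 lower; without any 1 of the other pools, 0 were higher and 1 to 5 lower. The embryonic globins Hbb-y, Hba-x and Hbb-bh1 stood at 0.19, 0.12 and 0.12, near the value of Prdx2, with overlapping groups. The other tested markers, Slc4a1, Epor, Epb42, Klf1, Alas2 and Gata1, stood below 0, at -1.14 to -0.070. The median of the list was -0.41. The summed erythroid signal, most of it from the globins, was 80310 to 87581 in control pools and 77022 to 94802 in diabetic pools. Hba-a1, an adult globin, was under the filter. The part of red blood cells in the Prdx2 signal was not tested.

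**Figure D3:**
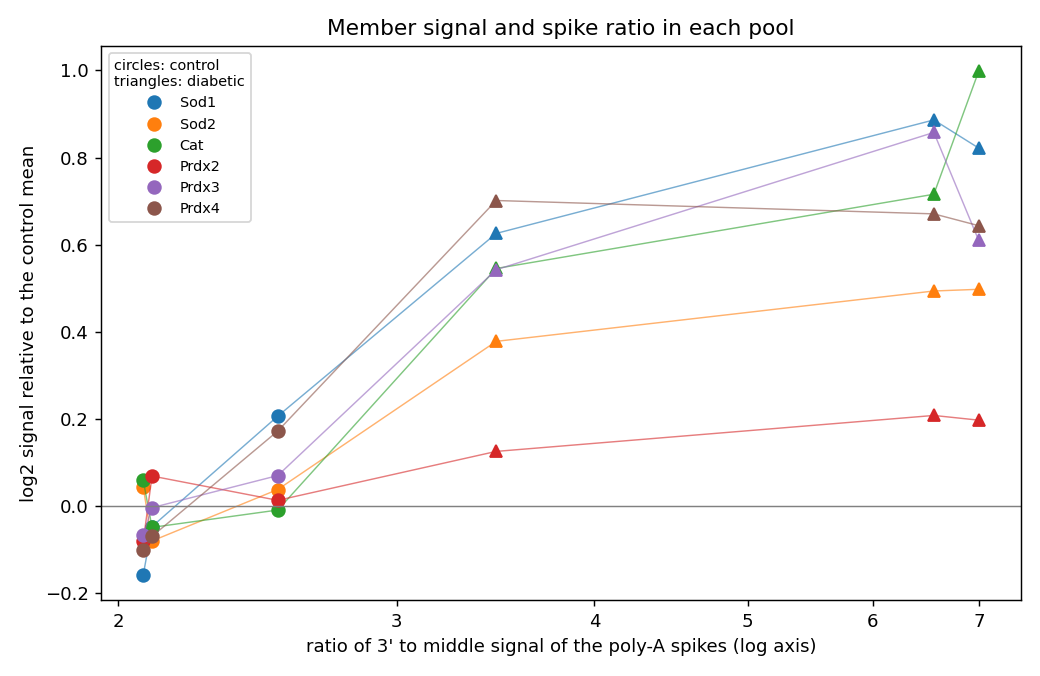
Log2 signal relative to the control mean (vertical axis) of 6 members at their brightest probe set, against the 3' to middle ratio of the poly-A spikes in the same pool (horizontal log axis), circles for control and triangles for diabetic pools. The diabetic pool with the ratio of 3.47 lies lowest of its group for Sod1, Sod2, Cat, Prdx2 and Prdx3 but highest for Prdx4.

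The 5 genes that rose kept their call without any 1 pool, with an adjusted p of at most 0.026, and under every other scaling. Their log2 fold changes depended on the scaling, since median centring moved the median of all genes to 0.30, quantile normalization to 0.14 and loess normalization to 0.08. The log2 fold change of Sod1 was 1.08 after median centring, 0.47 after quantile and 0.50 after loess normalization, that of Sod2 was 0.75, 0.43 and 0.42, and that of Prdx4 was 0.97, 0.39 and 0.43. Cat ranged from 0.61 to 1.05 and Prdx3 from 0.57 to 0.97. Thus each remained above the median of all genes under every scaling. With only diabetic pool 2 against the control pools, Sod1, Sod2, Cat, Prdx3 and Prdx4 had log2 fold changes of 0.63, 0.38, 0.55, 0.54 and 0.70. These rest on 1 diabetic pool.

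For the lists that follow, the shares over all genes were the 17.6% higher and 19.9% lower given above, and counts near these shares say nothing particular about a list. Counts over all probe sets moved with the scaling, from 4318 higher and 6550 lower to 7456 and 3917 after median centring. Quantile normalization gave 6293 and 5225, and loess normalization 5203 and 5757. The counts of a list under another scaling are to be read against these. Genes linked to the restoring of peroxiredoxins were near the shares over all genes. The list held thioredoxins, glutaredoxins and thioredoxin reductases, and also sestrins, sulfiredoxin, nucleoredoxin and Txnip. Of its 15 tested genes 3 were higher and 4 lower, with a median log2 fold change of -0.08. After median centring 5 were higher and 1 lower, with a median of 0.22. Txn1, the cytosolic thioredoxin, rose by 0.57 (adjusted p = 0.0092) but not under loess normalization (0.12), and Txn2, the mitochondrial one, was at 0.21 (adjusted p = 0.10), or 0.51 after median centring (0.025). Txnrd1, the cytosolic thioredoxin reductase, fell by 0.38 on the log2 scale (adjusted p = 0.024). That call was lost without any single one of control pools 1 and 3 and diabetic pools 1 and 3 (adjusted p = 0.061 to 0.093), and after median centring (0.72). Txnrd2, the mitochondrial reductase, was at -0.40 (adjusted p = 0.053), or -0.50 without control pool 2 (0.044). Srxn1, sulfiredoxin, which repairs over-oxidised peroxiredoxins, was at -0.35 (adjusted p = 0.23), or at -1.11 (0.0071) at the probe set read when those with a suffix for several transcripts were left out. Glrx, glutaredoxin, rose by 0.67 (adjusted p = 0.0026) and Sesn1, a sestrin, by 0.46 (0.0090), though the Sesn1 probe set read in that same setting stood at -0.30 (0.066). Nxn, nucleoredoxin, fell by 0.84 (adjusted p = 0.00074) and Sesn3 by 0.33 (0.013), the latter losing its call without control pool 2 (0.051) and after median centring (0.88).

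The glutathione system acts on hydrogen peroxide beside catalase and the peroxiredoxins. Of 13 tested genes 5 were higher and 1 lower, with a median of 0.23. After median centring 6 were higher and 1 lower, with a median of 0.53. Quantile and loess normalization each gave 3 higher and 1 lower, with medians of 0.10 and 0.097. Mgst1, a membrane glutathione transferase, rose by 0.54 (adjusted p = 0.0023) and Gpx8, a peroxidase of the endoplasmic reticulum, by 0.54 (0.0032), while Gclm, the modifier subunit of the enzyme that limits glutathione synthesis, fell by 1.30 (0.0010). Among sources of superoxide and hydrogen peroxide and the copper supply of SOD1, 3 of 13 tested genes were higher and 0 lower, with a median of 0.05. Atox1, a copper chaperone, rose by 0.70 (adjusted p = 0.0014) and Cyba, a subunit of NADPH oxidases, by 0.41 (0.011), the latter losing its call without control pool 2 (0.057). Ccs, the chaperone that loads copper into SOD1, was at 0.05 with overlapping groups (adjusted p = 0.71).

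**Figure D4:**
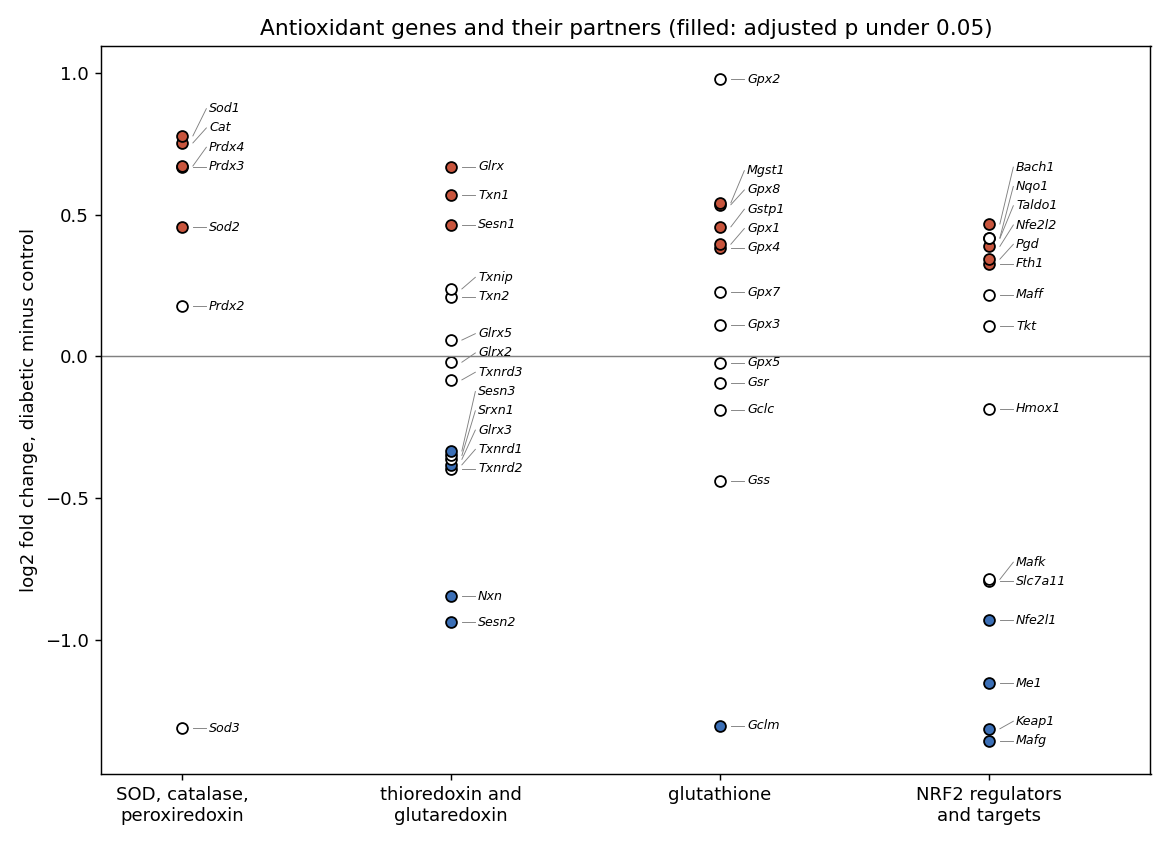
Log2 fold change, diabetic minus control (vertical axis), of every tested gene of 4 groups at its brightest probe set, with 1 point per gene, filled where the adjusted p was under 0.05. The 5 filled points of the dismutases, catalase and peroxiredoxins all lie above 0, whereas the other 3 groups hold filled points on both sides. Some lists that are not drawn also had upward calls only. These were 3 of 13 genes for oxidant sources and copper supply, 2 of 8 yolk sac and liver markers and 2 of 11 macrophage markers. The remaining lists not drawn held downward calls.

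Regulators of antioxidant genes were mixed. Of 15 tested genes of the NRF2 pathway 5 were higher and 4 lower, with a median of 0.11, or -0.07 under loess normalization. Nfe2l2, which encodes NRF2, rose by 0.39 (adjusted p = 0.014), a call lost without control pool 1 (0.065), control pool 2 (0.060) or diabetic pool 3 (0.054). Keap1, whose product marks NRF2 for degradation, fell by 1.31 (adjusted p = 0.0013), with signals of 551.7, 558.6 and 588.8 against 259.1, 265.1 and 172.3. Mafg, a small MAF partner of NRF2, fell by 1.35 (adjusted p = 0.00048), and Taldo1, transaldolase of the pentose phosphate pathway, rose by 0.42 (0.0053). Of 3 tested FOXO factors 0 were higher and 1 lower: Foxo4 fell by 0.41 (adjusted p = 0.024), a call lost under each of the other scalings (0.15 to 0.65) and without any 1 of the control pools or diabetic pool 3 (0.058 to 0.082).

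Genes of the organelles that house these enzymes were also counted. For peroxisome biogenesis, 2 of 13 tested genes were higher and 4 lower, with a median of -0.10, or 0.05 to 0.20 under the other scalings. Pex5, the receptor that imports catalase into peroxisomes, fell by 1.04 (adjusted p = 0.0021) and Pex6, an ATPase that recycles it, by 0.93 (0.0046). Pex2 rose by 0.41 (adjusted p = 0.0046) and Pex13 by 0.34 (0.030), the latter losing its call without control pool 1 or 2 or diabetic pool 1 or 3 (0.060 to 0.12). Among 20 tested genes of the mitochondrial matrix and inner membrane, where SOD2 and PRDX3 reside, 10 were higher and 1 lower, with a median of 0.19. Under quantile normalization 7 were higher and 7 lower, and under loess normalization 4 and 7. Cox5b, a subunit of cytochrome oxidase, rose by 0.87 (adjusted p = 0.0012) and Sdhb, of succinate dehydrogenase, by 0.50 (0.0018), while Polg, the mitochondrial DNA polymerase, fell by 1.24 (0.00070). With only diabetic pool 2 against the control pools, Txn1, Txnrd1, Glrx, Sesn1, Sesn3, Cyba, Nfe2l2, Foxo4 and Pex13 lost their calls (adjusted p = 0.053 to 0.30), whereas the other named partners that had changed kept theirs. With the spike ratio in the model 0 genes of all these lists were called in either direction.

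Markers of other cells were counted against the same shares of all genes, 17.6% higher and 19.9% lower. Of 8 tested yolk sac and liver markers 2 were higher and 0 lower, Afp rising by 0.90 (adjusted p = 0.0028) and Ttr by 0.82 (0.010). Rbp4, Apob and Apoa1 stood at 0.47, 0.68 and 0.47, and Alb, Amn and Cubn at 0.11, 0.012 and -0.090, all with overlapping groups. The summed signal, most of it from Afp and Ttr, was 4764 to 5490 in control pools and 7317 to 11171 in diabetic pools. Apoa4 and Apoc2 were under the filter. Of 11 macrophage markers 2 were higher and 0 lower, a share near that of all genes, with sums of 1382 to 1419 and 1706 to 2069. None was higher without control pool 2, control pool 3 or diabetic pool 1, and 6 were after median centring. Counted over all probe sets, 4318 were higher with every pool, against 2735, 4049 and 2830 without these and 7456 after median centring. Liver is known for its high content of catalase. The part of these cells in the increases was not tested.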

How the data were processed

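Deposited intensities, 1 linear signal per probe set, had been made by the authors with GCOS and MAS5 from matched and mismatched probes and scaled to a common array mean, so that signals are relative. The sources used here give no software versions. Log2 of the signals was taken. The 64 control probe sets and the dimmest 33.3% (mean log2 over 6 arrays) were left out, leaving 30025 probe sets. The platform's table paired 34958 probe sets with 1 symbol, 932 with several and 9211 with none. A gene was read at its brightest tested probe set. The test was limma 3.58.1 under R 4.3.3 (lmFit, eBayes with trend), two-sided, Benjamini-Hochberg adjusted over every probe set tested, with a call at an adjusted p under 0.05, tested on simulated data. Pairs of probe sets of 1 gene were compared likewise on their differences, but without the variance trend, a test added after the values were seen. The ± is the SD of pools or the SE of a log2 fold change.

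The members, the lists and the alternatives were chosen with earlier results of these data known. Named were all members and 8 partners (Ccs, Srxn1, Txn1, Txn2, Txnrd1, Txnrd2, Nfe2l2 and Keap1). In each list other than the marker lists, the 2 increases and the 2 decreases with the lowest adjusted p were named too, where there were so many. Single markers were named only for the erythroid list, the yolk sac and liver list and the placental and decidual list. Alternatives were other scalings, filters, a pseudocount of 32, no variance trend, the spike ratio (8 pairs of probe sets) in the model, a replicate block, other readings of a gene, left-out pools and the methods' tests, written anew. Plots used matplotlib 3.10.9 (Python 3.11.15). Deviations of same-numbered pools correlated at 4.94e-05, 0.076 and 0.12. Precision is limited by 6 arrays.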

Additional observations from a re-analysis of the deposited data

How the results depend on the processing

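The counts of 11 member probe sets and 5 member genes higher in the diabetic pools became 0 and 0 with the spike ratio in the model, and 0 and 0 by the methods' t-test after adjustment, where 81 of all probe sets were higher and 333 lower. Unadjusted, the methods' t-test called 13 and 6 higher, where 4415 of all probe sets were higher and 5406 lower. The count of probe sets that the authors report for their t-test is near the unadjusted one and far above the adjusted one. The methods' regularised test called 11 and 5 after adjustment. Median centring gave 14 and 6 and quantile normalization 12 and 5. The other filters, scalings and readings of a gene gave 9 to 11 probe sets and 5 genes, and leaving out both diabetic pools 1 and 3 gave 8 and 4. Loess normalization gave 1 member probe set and 1 gene lower, Prdx2 at -0.21, which was also reversed, at -0.11, under quantile normalization. Without 1 pool, 10 to 13 probe sets and 5 to 6 genes were higher and 0 to 1 lower, the latter being Sod3 without diabetic pool 3. Over all probe sets, 4318 were higher and 6550 lower, against 7456 and 3917 after median centring, 6293 and 5225 after quantile and 5203 and 5757 after loess normalization. The cause of these shifts was not tested.

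With the replicate number as a block, 11 probe sets and 5 genes were higher and 0 lower, and no member call changed other than that 0 pairs of probe sets differed. The numbers were taken as names only, since the labels give them no meaning and only 1 of the 3 same-numbered pairs correlated above 0.1. As a hint from the data, 4 of 6 pools correlated best with their own number.

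Among partners, Txn1 (-0.0394) and Txnrd1 (0.0106) were reversed with the spike ratio in the model, and Sesn1 (-0.30) when probe sets with a suffix for several transcripts were left out. Some differences between probe sets of 1 gene that had not passed also changed sign. Under quantile normalization these were the brightest Prdx4 probe set against the dim one (-0.0952) and the brightest Sod1 probe set against the third (-0.0795). With the spike ratio in the model the Cat pair stood at -0.0276, the brightest Prdx4 probe set against the one that may cross-hybridise at 0.277, the brightest Sod2 probe set against the second at 0.0445 and the brightest Sod1 probe set against the second at 0.160. Without 1 pool the Prdx2 pair ranged from -0.0845 to 0.0156, and the brightest Sod2 probe set against the third from -0.173 to 0.00587. Signals of Sod3 near the filter limit any statement on that gene.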
